A study of Rattus norvegicus with 12 samples.

Results

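Genes that p53 switches on were followed in rat vascular smooth muscle cells (RVSMCs) treated with angiotensin II (AngII) and depleted of the long noncoding RNA *Alivec*. The list holds 10 genes, *Aen*, *Cdkn1a*, *Mdm2*, *Ccng1*, *Bbc3*, *Bax*, *Gadd45a*, *Btg2*, *Zmat3* and *Phlda3*, and a member is the probe set that the annotation of the array names for that gene. Of the 10, 9 had a named probe set, 1 each, and *Btg2* had none, so 9 of 23188 probe sets on the array are described here. The genes lie on rat chromosomes 1 (*Aen*, *Bax* and *Bbc3*), 2 (*Zmat3*), 4 (*Gadd45a*), 7 (*Mdm2*), 10 (*Ccng1*), 13 (*Phlda3*) and 20 (*Cdkn1a*). *Aen* lies beside *Acan* on rat chromosome 1 and was selected on its own AngII effect with the control GapmeR. The other 9 were listed because they are p53 targets. The AngII effect with the control GapmeR is therefore given as a description with no test, and the AngII effect was tested as a difference within the other 6 arrays. The spread used in that test was estimated from all groups together, so the arrays with the control GapmeR enter it. Members and tests were chosen with earlier results of these data known. The choice may therefore not be free of these 6 arrays either.

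A GapmeR is an antisense oligonucleotide that directs cleavage of the RNA it binds. RVSMCs came from the thoracic aorta of male Sprague-Dawley rats. They received 100 nM of a negative control GapmeR (NCGap) or of 1 GapmeR against *Alivec* (*Alivec*Gap) for 48 h. They then received 100 nM AngII or the same volume of PBS for 3 h. The methods state that transfected cells were depleted of serum before AngII. The 2 GapmeRs and 2 treatments make 4 groups, each with 3 Clariom S arrays that the methods call independent, and all cells were transfected. Values are normalized log2 signals, on which 1 unit is a doubling. A p value sets a difference against the spread of arrays within groups, and no other source of variation enters it. That spread is pooled over the 4 groups and drawn toward a value shared by all probe sets.

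Testing was limited to probe sets that reached a log2 signal of 6 on 3 or more of the 12 arrays. This kept 14796 probe sets and all 9 members, each of which was above 6 on all 12 arrays. Array medians were 6.68 to 6.76, and arrays of a group correlated at 0.988 to 0.994 across tested probe sets. All 10 smooth muscle markers looked for were above 6 in every group, with a mean log2 signal of 11.17 to 11.45 on an array. Of 9 named endothelial markers only *Esam* was tested and *Pecam1* and *Cdh5* stayed under 6, and of 9 named leukocyte markers *Cd68*, *Cd14* and *C1qa* were tested and *Ptprc* stayed under 6. No probe set carried the name *Alivec* in the annotation used here, so the knocked-down RNA is not shown. Each array measured a bulk culture, in which fewer cells of a type and less RNA per cell cannot be told apart.

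p53 is a transcription factor that is held low in unstressed cells by Mdm2, a ubiquitin ligase whose own gene p53 switches on, which closes a feedback loop. When DNA damage or another stress releases p53, its targets stop the cell cycle, repair DNA, adjust metabolism or start apoptosis. Several of the targets, among them *Cdkn1a*, *Gadd45a* and *Btg2*, also answer to mitogens and stress kinases without p53. In the arterial wall p53 is known for restraining the growth of smooth muscle cells.

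p53 binds DNA as a tetramer at paired half-sites, each a run of purines, a C, a pair of A or T letters, a G and a run of pyrimidines. The RefSeq promoter table of rat build GRCr8, which reaches from 250 bases before to 50 bases after a gene's start, held 7 of the 10 genes (*Aen*, *Cdkn1a*, *Mdm2*, *Ccng1*, *Gadd45a*, *Btg2* and *Phlda3*). A p53 half-site without a mismatch stood in 4 of these, and the stretches around them are shown because they are the letters that p53 would read there. The half-site is in capitals, and each stretch is read 5′ to 3′ on the gene's strand.
Aen: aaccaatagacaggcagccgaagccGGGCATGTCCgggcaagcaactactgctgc
Cdkn1a: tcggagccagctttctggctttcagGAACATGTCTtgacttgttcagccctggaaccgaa
Ccng1: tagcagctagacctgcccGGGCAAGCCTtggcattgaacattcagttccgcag
Gadd45a: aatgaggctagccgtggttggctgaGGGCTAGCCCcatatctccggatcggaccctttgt
These are chr1:142224478-142224532 on the plus strand for *Aen*, chr20:7150706-7150765 on the plus strand for *Cdkn1a*, chr10:25685074-25685126 on the minus strand for *Ccng1* and chr4:97486813-97486872 on the minus strand for *Gadd45a*. The half-sites began 30, 201, 232 and 48 bases before the start of *Aen*, *Cdkn1a*, *Ccng1* and *Gadd45a*. Of all 33469 promoters in the table, 7.98% held such a half-site on either strand. The AP-1 motif TGANTCA, which 7.33% of promoters held, and the CArG box of serum response factor, which 1.64% held, were in none of the 7. In human cells the known p53 elements of *MDM2* and *GADD45A* lie in introns, outside a window of this kind, and those of *CDKN1A* lie upstream. Where the matching rat elements lie, and whether the *Cdkn1a* stretch above is one of them, was not examined. Only single half-sites without a mismatch were searched for, so an imperfect partner beside a marked half-site is not marked. In the *Cdkn1a* stretch, the letters right after the marked half-site follow the half-site pattern in all but their first letter. A match is a run of letters and not a measured site, and its absence says only that these letters are not in this window.

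After AngII the members went in both directions. At an adjusted p of 0.05 in limma, 3 of the 9 rose in the 6 *Alivec*Gap arrays (*Aen*, *Phlda3* and *Gadd45a*). In the same arrays 3 fell (*Cdkn1a*, *Mdm2* and *Zmat3*) and 3 (*Ccng1*, *Bax* and *Bbc3*) did not pass the test. The log2 changes of those that passed were 0.26 to 0.44 in size. Over all tested probe sets 10.8% rose and 15.6% fell in this comparison, and the median log2 fold change was -0.14 for the 9 members and -0.04 for all probe sets. After *Alivec* knockdown *Gadd45a* was the member that rose, by 0.40 on the log2 scale in the mean of both conditions, and the other 8 members passed in neither direction.

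**Figure D1:**
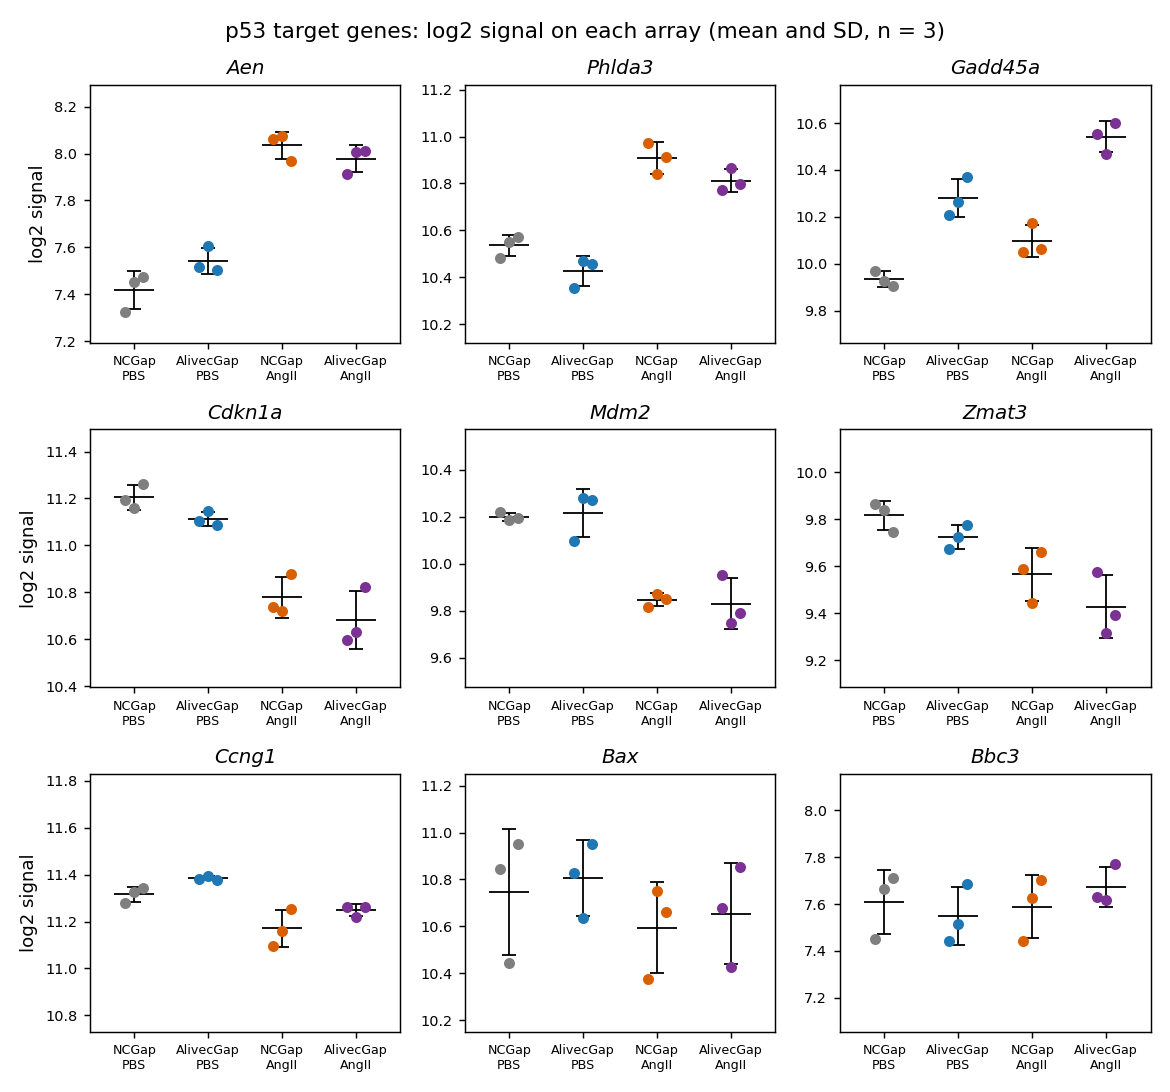
Normalized log2 signal of the 9 p53 target genes with a named probe set (y axis, its own range in each panel) in the 4 groups (x axis). Points are single arrays, the wide line is the mean of 3 arrays and the bar is 1 SD. *Aen* and *Phlda3* lie higher and *Cdkn1a*, *Mdm2* and *Zmat3* lower on every AngII array than on any PBS array with the same GapmeR, *Gadd45a* steps up with *Alivec*Gap under PBS and under AngII, and the groups of *Bax* and *Bbc3* overlap.

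Among the genes of cell death, *Aen* (probe set TC0100001821.rn.2) encodes a nuclease that degrades DNA and RNA in apoptosis. Its log2 signal was 7.32, 7.45 and 7.47 with NCGap and PBS, and 8.06, 8.07 and 7.97 with NCGap and AngII. With *Alivec*Gap it was 7.52, 7.60 and 7.50 under PBS and 7.91, 8.01 and 8.01 under AngII. All 3 *Alivec*Gap arrays with AngII were above all 3 with PBS. The NCGap arrays of the 2 treatments were also apart, but *Aen* was selected on them. In the *Alivec*Gap arrays *Aen* rose 1.35-fold, a log2 fold change of 0.44 with a standard error of 0.0679 (adjusted p = 5.5e-04, limma). That standard error rests on the spread within all groups, the NCGap arrays included. The call also held with only the compared groups in the fit. With NCGap, the arrays on which it was selected, the difference was 0.62. The response with *Alivec*Gap was thus 0.705 of that with NCGap on the log2 scale. The difference between the responses, -0.18 (95% interval -0.39 to 0.03), did not pass in limma (adjusted p = 0.928), and it uses the NCGap arrays that selected the gene.

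*Bax*, a pore-forming protein of the mitochondrial outer membrane, and *Bbc3*, which encodes the BH3-only activator PUMA, are the classical apoptotic targets on the list. The signal of *Bax* ran from 10.38 on an NCGap array with AngII to 10.95 on a PBS array of each GapmeR, and its SD within a group was 0.160 to 0.268, the widest of the 9 members. Its AngII difference with *Alivec*Gap was -0.15 with a 95% interval of -0.48 to 0.18 (adjusted p = 0.514, limma), so a fall or a rise of moderate size was not detectable with these arrays. *Bbc3* ran from 7.44 to 7.77, its 4 groups overlapped, and its AngII difference with *Alivec*Gap was 0.12 with an interval of -0.09 to 0.34 (adjusted p = 0.393). With NCGap the same difference was -0.02, which made *Bbc3* the only member whose direction differed between the GapmeRs.

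*Phlda3* (TC1300000343.rn.2) encodes a small lipid-binding protein that keeps the survival kinase Akt off the membrane. It read 10.48, 10.55 and 10.57 with NCGap and PBS and 10.97, 10.84 and 10.91 with NCGap and AngII. With *Alivec*Gap it read 10.35, 10.47 and 10.46 under PBS and 10.77, 10.86 and 10.80 under AngII. Every AngII array was above every PBS array. The rise with *Alivec*Gap was 1.31-fold, a log2 fold change of 0.39 with a standard error of 0.0650 (adjusted p = 9.7e-04, limma), and the NCGap arrays gave 0.37.

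The cell cycle inhibitor on the list moved the opposite way. *Cdkn1a* (TC2000000249.rn.2) encodes p21, which blocks cyclin-dependent kinases and is the target through which p53 arrests cells before DNA synthesis. Its log2 signal was 11.19, 11.16 and 11.26 with NCGap and PBS and 10.74, 10.72 and 10.88 with NCGap and AngII. With *Alivec*Gap it was 11.10, 11.15 and 11.09 under PBS and 10.59, 10.63 and 10.82 under AngII. Each of the 6 AngII arrays was below each of the 6 PBS arrays. With *Alivec*Gap *Cdkn1a* fell by 0.43 with a standard error of 0.0755 (adjusted p = 0.00126, limma), a 1.35-fold lower signal, and the NCGap difference was also -0.43.

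*Mdm2* (TC0700002764.rn.2), the inhibitor of p53 in the feedback loop, went with *Cdkn1a*. It was 10.22, 10.19 and 10.19 with NCGap and PBS and 9.82, 9.87 and 9.85 with NCGap and AngII. With *Alivec*Gap it was 10.10, 10.28 and 10.27 under PBS and 9.95, 9.75 and 9.79 under AngII. No AngII array reached a PBS array. *Mdm2* fell by 0.39 with *Alivec*Gap (standard error 0.0736, adjusted p = 0.00211, limma), 1.31-fold, beside a difference of -0.35 with NCGap.

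*Zmat3* encodes a zinc finger protein that binds RNA and acts on transcript stability and splicing downstream of p53. Its PBS arrays ran from 9.67 to 9.86 and its AngII arrays from 9.32 to 9.66, with the NCGap and AngII array at 9.66 just under the lowest PBS array. The fall with *Alivec*Gap was by 0.30 with a standard error of 0.0827 (adjusted p = 0.0192, limma), and with NCGap the difference was -0.25. The *Zmat3* call was lost without *Alivec*Gap replicate 2 or 3 of either condition, with an adjusted p of up to 0.0828.

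*Ccng1* encodes cyclin G1, which recruits a phosphatase to Mdm2 and closes another arm of the feedback. It was 11.28, 11.33 and 11.34 with NCGap and PBS and 11.10, 11.16 and 11.26 with NCGap and AngII, and it stayed at 11.38, 11.39 and 11.38 and then 11.26, 11.22 and 11.26 with *Alivec*Gap. All AngII arrays lay below the PBS arrays of the same GapmeR, yet the step was small. Its log2 difference with *Alivec*Gap was -0.14 (95% interval -0.27 to -0.00456) and did not pass in limma (adjusted p = 0.123). A prior that follows the signal (adjusted p = 0.0322) and a fit with no moderation of the spread (0.0295) put it past the threshold.

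**Figure D2:**
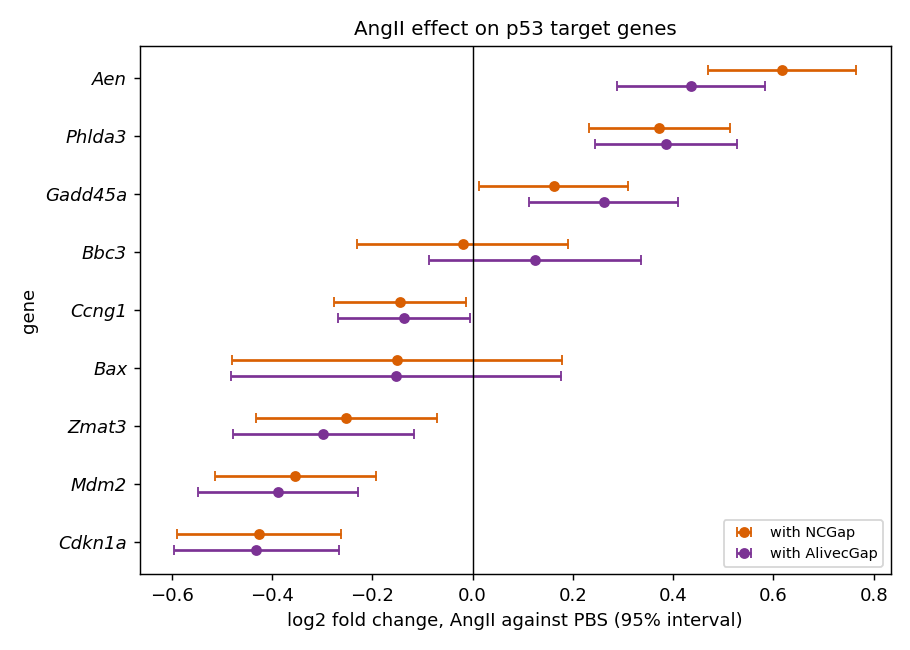
AngII effect on the 9 p53 target genes (y axis) as the log2 fold change of AngII against PBS (x axis) with NCGap and with *Alivec*Gap; bars are 95% intervals from limma. *Aen*, *Phlda3* and *Gadd45a* lie to the right of 0 and *Cdkn1a*, *Mdm2*, *Zmat3* and *Ccng1* to the left with both GapmeRs, and the NCGap values, on which *Aen* was selected, are shown as a description.

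With NCGap, 2 members (*Aen* and *Phlda3*) were higher and 3 (*Cdkn1a*, *Mdm2* and *Zmat3*) lower at the adjusted threshold, where 13.3% of all tested probe sets were higher and 17.9% lower. Nothing is read from these counts, because the comparison took part in the choice of members. The NCGap and *Alivec*Gap differences have no array in common, though the fit gives them a shared spread. In both, 8 of the 9 members had the same sign, among them *Aen*, which was selected on its NCGap effect. The share of all probe sets that keep their sign was not counted, so nothing is read from this count. The response of *Cdkn1a* with *Alivec*Gap was 1.01 times that with NCGap on the log2 scale, that of *Phlda3* 1.03 times, that of *Mdm2* 1.10 times and that of *Zmat3* 1.18 times. For *Gadd45a*, whose NCGap difference was 0.16, the factor was 1.62.

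The interaction of GapmeR and AngII, which tests whether the response differed, was passed by 0 of the 9 members and by 0 of all tested probe sets (0%) after adjustment in limma. At an unadjusted p under 0.05 there were 814 probe sets and 0 members, and the thresholds of the study (1.2-fold and an unadjusted p under 0.05) were met by 4.68% of probe sets. Beside *Aen*, the differences of the other 8 ran from -0.05 for *Zmat3* to 0.14 for *Bbc3*. The intervals of *Cdkn1a* (-0.24 to 0.23), *Mdm2* (-0.26 to 0.19) and *Phlda3* (-0.19 to 0.21) reached up to 0.26 in size. The widest were those of *Bax* (-0.47 to 0.46) and *Bbc3* (-0.15 to 0.44).

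*Gadd45a* (TC0400003031.rn.2) stood apart after the knockdown. It encodes a stress sensor that binds PCNA and p21, activates the p38 and JNK cascades and takes part in DNA demethylation. Its log2 signal was 9.97, 9.93 and 9.91 with NCGap and PBS and 10.21, 10.26 and 10.37 with *Alivec*Gap and PBS. Under AngII it was 10.05, 10.17 and 10.06 with NCGap and 10.56, 10.47 and 10.60 with *Alivec*Gap. The 4 groups did not overlap, in the order NCGap with PBS, NCGap with AngII, *Alivec*Gap with PBS and *Alivec*Gap with AngII.

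In the AngII arrays *Gadd45a* rose 1.36-fold with *Alivec*Gap, a log2 fold change of 0.45 with a standard error of 0.0681 (adjusted p = 0.0152, limma), and ranked 185 of 14796 probe sets by size. In the PBS arrays the difference was 0.35 (adjusted p = 0.0596), which misses the adjusted threshold and meets the thresholds of the study. Over both conditions, 6 arrays against 6, *Gadd45a* rose 1.32-fold (0.40, 95% interval 0.29 to 0.50, adjusted p = 0.00176). Its AngII effect with *Alivec*Gap was 0.26 (standard error 0.0681, adjusted p = 0.0136), and its 2 knockdown effects differed by 0.10 with an interval of -0.11 to 0.31.

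The call of *Gadd45a* under AngII was lost without NCGap replicate 1 (adjusted p = 0.0703), *Alivec*Gap replicate 1 (0.0859) or *Alivec*Gap replicate 3 (0.0762) of that condition, with no filter on low signal (0.0587) and with only the compared groups in the fit (0.0753). Its AngII effect with *Alivec*Gap lost its call without *Alivec*Gap replicate 1 under PBS (0.0579) or replicate 3 under AngII (0.0509). In the mean of both conditions the knockdown call of *Gadd45a* held under all 8 alternatives and without each of the 12 arrays, with an adjusted p of at most 0.00838. Some markers of adventitial fibroblasts differed as well. Of 8 named markers 6 were tested, and in the mean of both 5 were higher and 1 lower. At the adjusted threshold of limma 2 of the 6 passed, beside 2.73% of all probe sets. These were *Dcn* (0.54, adjusted p = 0.00294) and *Mfap5* (0.41, adjusted p = 0.00965), both higher. *Col14a1* was lower by 0.28 in the mean of both (adjusted p = 0.0909) and met the thresholds of the study as lower in either condition, while *Cd34* and *Ly6c* stayed under 6. The mean signal of the 8 on an array was 7.47 to 7.51 with NCGap and 7.55 to 7.68 with *Alivec*Gap under PBS, and 7.24 to 7.40 and 7.44 to 7.55 under AngII. All 10 smooth muscle markers were lower in the mean of both, with a median log2 fold change of -0.06 beside 0.003 for all probe sets. Of the 10, *Cnn1* alone passed in limma (-0.25, adjusted p = 0.0117), beside the same 2.73% of all probe sets. The mean signal of the 10 on an array was 11.38 to 11.45 with NCGap and 11.23 to 11.37 with *Alivec*Gap under PBS. Under AngII it was 11.29 to 11.33 and 11.17 to 11.26. Of the 3 tested leukocyte markers, 0 passed after adjustment and *Cd14* met the thresholds of the study in the mean of both (0.50, adjusted p = 0.0569), but it reached 6 on AngII arrays alone, 3 with *Alivec*Gap and 1 with NCGap. The mean signal of the 9 named leukocyte markers was 5.08 with NCGap and 5.12 with *Alivec*Gap under PBS, and 5.19 and 5.27 under AngII, and the arrays of these groups overlapped in either condition. The part of these markers in the *Gadd45a* result was not tested.

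The relatives of *Gadd45a* did not rise with it. *Gadd45b*, which shares its kinase and PCNA partners, had a log2 signal of 11.47 with NCGap and 11.21 with *Alivec*Gap under PBS, a difference of -0.26 that did not pass after adjustment (adjusted p = 0.101, limma). Under AngII its difference was -0.06 (adjusted p = 0.758). *Gadd45g* differed by -0.03 under PBS (95% interval -0.22 to 0.17) and by 0.08 under AngII (-0.12 to 0.27). The upper ends of these intervals lie below the lower end for *Gadd45a* under AngII, 0.30, and the difference between the genes was not itself tested.

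**Figure D3:**
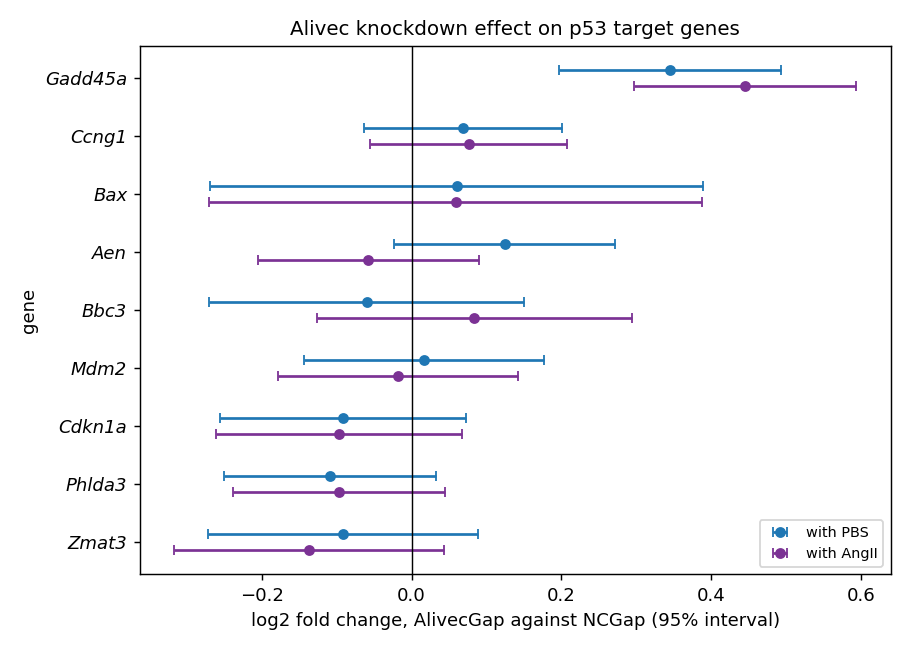
Effect of *Alivec* knockdown on the 9 p53 target genes (y axis) as the log2 fold change of *Alivec*Gap against NCGap (x axis), under PBS and under AngII; bars are 95% intervals from limma. *Gadd45a* lies at 0.35 and 0.45 with intervals clear of 0, and the intervals of the other 8 include 0 in both conditions.

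Under PBS 0 of the 9 members and 0.399% of all tested probe sets passed the adjusted threshold for *Alivec*Gap against NCGap in limma, and *Gadd45a* alone of the members met the thresholds of the study, beside 4.93% of probe sets. Under AngII 1 of 9 members passed after adjustment, beside 0.818%, and the same gene met the study thresholds, beside 6.1%. In the mean of both conditions 1 of 9 passed, beside 2.73%, and again *Gadd45a* alone met the study thresholds, beside 3.91%.

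For the other 8 members the knockdown differences ran from -0.11 to 0.12 under PBS and from -0.14 to 0.08 under AngII. *Aen* was higher on all 3 *Alivec*Gap arrays under PBS by 0.12 (95% interval -0.02 to 0.27), and under AngII its groups overlapped with a difference of -0.06. Both differences of *Aen* use NCGap arrays that selected the gene, so nothing is read from their opposite signs. *Cdkn1a* differed by -0.09 and -0.10, *Zmat3* by -0.09 and -0.14 and *Mdm2* by 0.02 and -0.02. *Phlda3* was lower by 0.10 in the mean of both (adjusted p = 0.326, limma). The intervals of these differences reached at most 0.39 in size, the widest being those of *Bax*.

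*Cdkn1a*, *Mdm2* and *Zmat3* kept together from array to array, with Pearson's r of 0.83 to 0.87 over the 12 arrays, and each of them ran against *Aen* (-0.86 to -0.92). These values describe 4 groups that AngII sets apart and carry no test. Among the 10190 other named probe sets the pattern of *Aen* was closest to that of *Gja1*, which encodes the gap junction protein connexin (r = 0.993), *Atf4*, a transcription factor of the stress response (0.990), *Ptp4a1*, a phosphatase that is also a p53 target (0.986), *Nifk* (0.986) and *Dhrs9* (0.984). *Cdkn1a* was closest to *Zfp763* (0.984), *Mgll* (0.980), *Gne* (0.980), *Echs1* (0.978) and *Agtr1a*, which encodes the AngII receptor AT1 (0.974). *Mdm2* was closest to *Fbxo3* (0.981), *Pik3c2b* (0.981), *Nif3l1* (0.968), *Grb14* (0.965) and *Cep76* (0.965).

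A wider list of 72 other p53 targets, of which 58 had a named probe set and 52 were tested, also went both ways. *Plk3* and *Pmaip1* reached a signal of 6 on AngII arrays alone, so that they entered the test only through the treatment under test, and they are left out of the AngII counts. With *Alivec*Gap, AngII raised 9 and lowered 16 of the remaining 50 at the adjusted threshold of limma, beside 10.8% raised and 15.6% lowered of all probe sets, and 25 did not pass. Their median log2 fold change was -0.13, beside -0.04 for all probe sets. With NCGap 12 were higher and 15 lower, beside 13.3% and 17.9%. Groups by role are small, and their counts stand against the same shares of all probe sets.

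In the same arrays, targets in the feedback on p53 and in DNA repair had members that fell and 0 that rose at the adjusted threshold. In the feedback group 5 of 7 fell, among them *Ccng2*, a relative of *Ccng1*, by 1.86 on the log2 scale (adjusted p = 1.5e-07, limma), *Triap1*, an inhibitor of apoptosis, by 0.54, *Ppm1d*, the phosphatase that switches p53 signaling off, by 0.50 and *Rchy1*, a ubiquitin ligase for p53, by 0.46. *Ccng2* thus went from a log2 signal of 8.37 to 6.52 in the *Alivec*Gap arrays. Whether *Ccng2* answers to p53 in these cells was not tested, and it is also counted among the relatives of the members. With NCGap 3 of the 7 were lower and 1, the ubiquitin ligase gene *Cop1*, was higher (0.22), and *Cop1* differed by 0.17 with *Alivec*Gap (adjusted p = 0.0763). In DNA repair 3 of 5 fell with *Alivec*Gap and 2 of 5 with NCGap. With *Alivec*Gap these were *Xpc*, a sensor of damaged bases, by 0.54, *Ddb2* by 0.50 to a mean under 6, and *Rrm2b*, a ribonucleotide reductase subunit, by 0.45. The call of *Xpc* held under all alternatives and without each array. That of *Ddb2* was lost with no moderation of the spread (adjusted p = 0.0590) and held in 8 of 12 cases with an array left out (up to 0.0849). That of *Rrm2b* held under 4 of 9 alternatives and in 5 of 12 such cases (up to 0.167).

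Of 10 targets in cell death, *Pmaip1* left out, 4 fell and 1 rose. The death receptor *Fas* fell 2.07-fold (-1.05, adjusted p = 1.3e-05, limma), *Pidd1*, the scaffold of the PIDDosome, by 0.87, *Apaf1*, the core of the apoptosome, by 0.68 and *Tp53inp1* by 0.59. The BH3-only gene *Bid* rose by 0.52 (adjusted p = 0.0424), a call that held under 7 of 9 alternatives and in 5 of 12 cases with an array left out. *Pmaip1*, which encodes the BH3-only protein NOXA, read 5.33, 5.41 and 5.83 with *Alivec*Gap and PBS and 5.99, 5.74 and 6.31 with AngII, and these groups overlapped. In the cell cycle group, *Plk3* left out, 3 of 5 rose and 1 fell. *Plk3*, a polo-like kinase, read 4.50, 4.69 and 4.60 with *Alivec*Gap and PBS and had a mean of 5.97 with AngII, low on this array throughout. *Sertad1*, which activates CDK4, rose by 0.46, *Plk2* by 0.34 and *Ier5* by 0.31 (adjusted p = 0.0221, limma), while *Tob1*, an antiproliferative relative of *Btg2*, fell by 0.74. The *Ier5* call was lost with no filter on low signal (0.0515) and held in 9 of 12 cases with an array left out (adjusted p of up to 0.0883).

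In metabolism 2 of 9 rose and 1 fell, and of the remaining 14 targets 3 rose and 2 fell. With single arrays left out, the calls of *Sesn2*, *Ephx1*, *Ntpcr* and *Tsku* among these held in 10, 7, 8 and 7 of 12 cases. The largest rises were in *Lif*, a cytokine (1.81-fold, adjusted p = 2.2e-04, limma), *Pank1*, which starts coenzyme A synthesis (0.56), and *Ptp4a1* (0.43), and *Pgf*, a placental growth factor, fell by 0.51. *Alivec* knockdown lowered *Pank1* under AngII by 0.38 (adjusted p = 0.0431, limma), the only one of the 52 that passed there. That call was lost under 4 of 9 alternatives. With single arrays left out it held in 4 of 12 cases (adjusted p of up to 0.178). In the mean of both conditions *Ascc3*, a helicase, fell by 0.35 (adjusted p = 0.0125), *Pank1* fell by 0.24 and *Ephx1*, an epoxide hydrolase, rose by 0.22, and 0 of the 52 passed under PBS. These are 3, 1 and 0 of 52 in the mean, under AngII and under PBS, beside 2.73%, 0.818% and 0.399% of all probe sets. With single arrays left out, the calls of *Ephx1* and *Pank1* in the mean held in 1 and 4 of 12 cases and that of *Ascc3* in all 12.

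**Figure D4:**
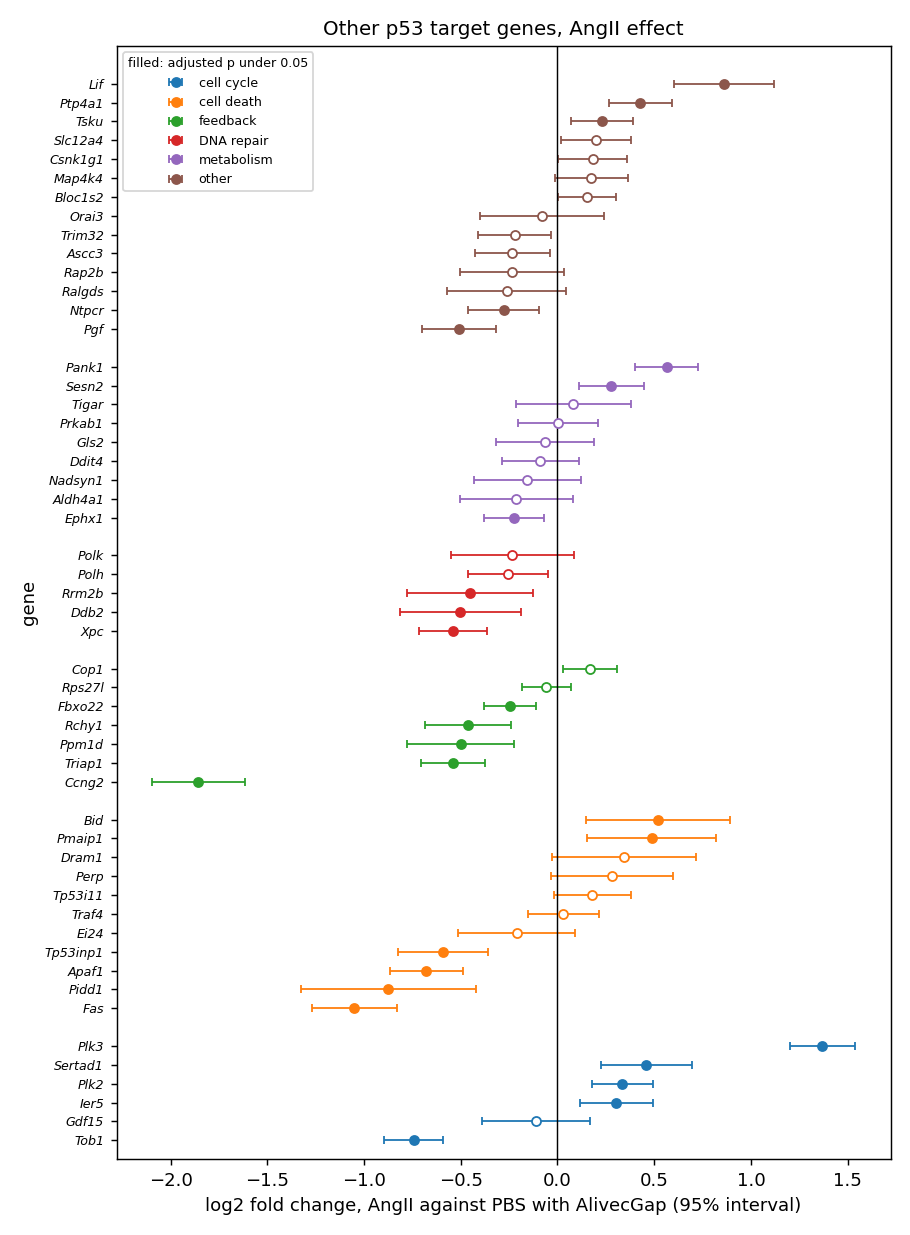
AngII effect on 52 other p53 target genes (y axis, grouped and coloured by role) as the log2 fold change of AngII against PBS with *Alivec*Gap (x axis); bars are 95% intervals from limma and filled points have an adjusted p under 0.05. Filled points lie on both sides of 0, 11 to the right and 16 to the left, with *Lif* toward the upper end and *Ccng2* and *Fas* at the lower, and the filled points of *Plk3* and *Pmaip1* are genes that reached a signal of 6 on AngII arrays alone.

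Gene families of the members were compared in the same arrays, because a member may move alone or with its relatives. Both relatives of *Aen* rose with AngII in the *Alivec*Gap arrays, the exonuclease genes *Isg20l2* by 0.46 (adjusted p = 3.9e-04, limma) and *Isg20* by 0.42 (adjusted p = 0.00726), close to the 0.44 of *Aen*. *Isg20* also lies on chromosome 1, and its probe set (TC0100001822.rn.2) is numbered next to that of *Aen*. For *Isg20*, family and position therefore cannot be told apart. *Phlda1* rose 2.41-fold (1.27, adjusted p = 9.3e-06), more than *Phlda3*, while *Phlda2* differed by 0.03. *Cdkn1b*, which encodes the inhibitor p27, fell with *Cdkn1a* (by 0.64, adjusted p = 0.00193), and *Cdkn1c* differed by 0.20 (95% interval -0.07 to 0.46). *Mdm4*, the partner of *Mdm2*, fell by 0.35 (adjusted p = 0.0078). Of 4 tested relatives of *Btg2*, *Btg1* fell by 0.78 and *Tob1* by 0.74, and *Btg3* and *Tob2* did not pass.

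The family of *Bax* and *Bbc3* had 12 tested relatives, of which *Bcl2a1* and *Pmaip1* reached a signal of 6 on AngII arrays alone and are not counted. Of the other 10, 4 rose and 0 fell after adjustment, beside 10.8% and 15.6% of all probe sets. These were the survival genes *Bcl2l1* (0.62, adjusted p = 9.9e-05, limma), *Bcl2* (0.58, adjusted p = 0.014) and *Mcl1* (0.52, adjusted p = 4.9e-05), and *Bid*. The call of *Bcl2* was lost without *Alivec*Gap replicate 1 under PBS (0.0615) or replicate 3 under AngII (0.0547). *Bcl2l11*, which encodes the activator BIM, differed by -0.40 and did not pass. *Bcl2a1*, another survival gene, read 4.74, 5.55 and 4.90 with *Alivec*Gap and PBS and 6.20, 5.67 and 6.17 with AngII. *Bak1*, the other pore former, differed by 0.14 with an interval of -0.11 to 0.38. Over 26 relatives, without *Bcl2a1* and *Pmaip1*, AngII raised 7 and lowered 5, with a median of 0.10 beside -0.04 for all probe sets. *Alivec* knockdown called 0 of all 28 in limma under PBS, under AngII or in the mean of both, beside 0.399%, 0.818% and 2.73% of all probe sets.

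**Figure D5:**
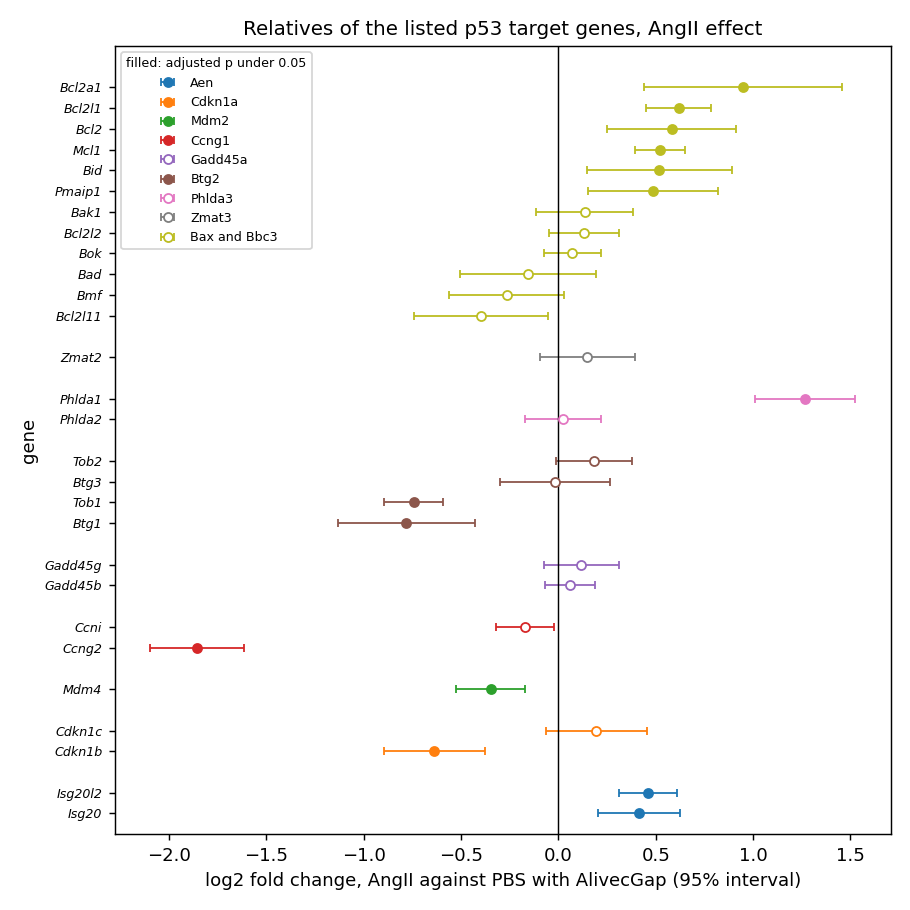
AngII effect on 28 relatives of the listed p53 target genes (y axis, coloured by the member they are related to) as the log2 fold change of AngII against PBS with *Alivec*Gap (x axis); bars are 95% intervals from limma and filled points have an adjusted p under 0.05. The relatives of *Aen* lie to the right of 0 as *Aen* does, *Cdkn1b*, *Mdm4* and *Ccng2* lie to the left, and 6 of the 12 relatives of *Bax* and *Bbc3* are filled, all to the right, of which *Bcl2a1* and *Pmaip1* reached a signal of 6 on AngII arrays alone.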

How the data were processed

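RNA from the 12 cultures was hybridized to Clariom S rat arrays. The deposited values are log2 signals after Robust Multichip Average normalization, for which the authors used Partek Genomics Suite 6.6. Not given in the sources used here were the summary options of that step and the build of the array design, and CEL files were not used here. Names came from the annotation of the platform, updated through the RefSeq genes of GRCr8, and 15049 probe sets had 1 name and 8139 none.

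Probe sets under a log2 signal of 6 on more than 9 of the 12 arrays were left out, since the methods remove low signals. The 4 group means were fitted with limma 3.58.1 (lmFit and eBayes) in R 4.3.3, and p values were adjusted over all 14796 tested probe sets by the Benjamini-Hochberg method. The study's thresholds (1.2-fold and an unadjusted p under 0.05) were counted beside an adjusted p of 0.05. An analysis of variance in Partek is the test named in the methods. No permutation test was run, since an exact test of 3 arrays against 3 cannot go below p = 0.1. The number of arrays limits the precision.

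The members, the lists of other targets, regulators, relatives and markers, and the tests were chosen with earlier results of these data known, and the lists were written from memory. Of each list the text names genes with an adjusted p under 0.05, at most 6 in each direction of a group of it, with those of the same family beside them. *Cop1*, *Col14a1* and *Cd14* were named after their values were seen, as were listed genes that reached 6 on AngII arrays alone, which were left out of the AngII counts. Motifs were searched on both strands. The fit was tested on simulated data. Alternatives were another filter or none, quantile normalization, centred arrays, a replicate term, another prior or no moderation, only the groups compared, array weights, and each array left out in turn.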

Additional observations from a re-analysis of the deposited data

How the results depend on the processing

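Under all 9 alternatives and without each of the 12 arrays, *Aen* and *Phlda3* stayed called higher and *Cdkn1a* and *Mdm2* called lower with AngII in the *Alivec*Gap arrays. The calls of *Gadd45a* and *Zmat3* held under all 9 and were lost without 2 and 4 of the arrays. The replicate block (pairing by number) left 3 members higher and 3 lower there and changed no call of a member. Deviations of same-numbered arrays correlated above 0.1 in 9 of 18 pairs and above 0 in 17 (-0.0938 to 0.323), against 4 and 12 of 36 pairs with other numbers (-0.338 to 0.272). The numbers may thus mark a shared source, but the labels name none and not every pair was above 0.1, so the fit without the block was kept.

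Counts of members called higher by the knockdown moved from 0 to 1 under PBS (*Gadd45a*) with a signal of 6 on all arrays, a prior that follows the signal or array weights, and from 1 to 0 under AngII with no filter or only the compared groups; without single arrays the AngII count was 0 to 1. The knockdown counts over all probe sets, 59 under PBS, 121 under AngII and 404 in the mean, became 10, 25 and 201 with no filter, and 204, 335 and 731 with a prior that follows the signal. Under PBS they became 89 after quantile normalization, 195 with array weights, 12 with no moderation and 1 with only the compared groups, and under AngII 74 with no moderation and 26 with only the compared groups. Without single arrays they were 3 to 106, 18 to 156 and 225 to 404. The cause was not tested.

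Signs reversed only for differences that were not called. These were *Bbc3* with AngII and NCGap (0.0385 after quantile normalization, 0.0376 centred, 0.0640 with weights, -0.0981 to 0.0546 without single arrays) and after knockdown under PBS (0.0179 with weights) or in the mean (-0.0273 to 0.0400). Knockdown differences without single arrays were -0.0157 to 0.0766, -0.0795 to 0.0236 and -0.0314 to 0.0294 for *Mdm2* under PBS, under AngII and in the mean, and -0.0912 to 0.163, -0.0510 to 0.172 and -0.0161 to 0.116 for *Bax*. Interactions that reversed were *Cdkn1a* (0.000634 after quantile normalization, -0.0758 to 0.0443 without single arrays), *Bax* (0.0232 and, with weights, 0.00295; -0.111 to 0.150), *Ccng1* (-0.0270 centred, -0.0126 with weights, -0.0290 to 0.0496), *Phlda3* (-0.0221 centred, -0.00360 with weights, -0.0238 to 0.0447), *Mdm2* (-0.0962 to 0.00692) and *Zmat3* (-0.119 to 0.0105).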

Other observations

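Of 28 listed regulators of p53, 17 had a named probe set and 15 were tested. With AngII in the *Alivec*Gap arrays, 4 fell and 2 rose at the adjusted threshold of limma, where 15.6% of all tested probe sets fell and 10.8% rose. The damage kinases *Atm* and *Chek1*, which signal DNA breaks and stalled replication to p53, fell by 0.57 (adjusted p = 0.00246) and 0.72 (adjusted p = 0.00368) on the log2 scale. The acetyltransferase *Kat8* fell by 0.36 (adjusted p = 0.0123), a call that was lost without *Alivec*Gap replicate 3 under PBS or replicate 2 under AngII, and *Mdm4* by 0.35. The kinase *Hipk2*, which phosphorylates p53, rose by 0.38 (adjusted p = 0.00562) and the deubiquitinase *Usp10* by 0.37 (adjusted p = 0.00829). *Usp7* (-0.08), *Chek2* (-0.18) and *Cdkn2a* (-0.28) did not pass. *Alivec* knockdown called 0 of the 15 under PBS, under AngII or in the mean of both, beside 0.399%, 0.818% and 2.73% of all probe sets, with differences of -0.14 to 0.12 under PBS and -0.20 to 0.09 under AngII.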
